A study of Rattus norvegicus with 12 samples.

Results

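Translation initiation and elongation factors are the proteins that start and carry out protein synthesis on the cytosolic ribosome, and their transcripts were followed here through 9 weeks of carbon tetrachloride injury in rat liver. The members were all genes whose only symbol in the deposited workbook begins with Eif or Eef and then a digit. This rule took 57 of 13912 genes with a single symbol, measured by 98 of 31099 probe sets. Each gene was read from its brightest probe set, judged by the mean of log2(signal + 16) across 12 arrays. Of the 57, 49 carry their current symbol and 8 carry an older one: Eif1ay is now Eif1ax, Eif2s3x is Eif2s3, Eif3s10 is Eif3a, Eif3s9 is Eif3b, Eif3s6ip is Eif3l, and Eif2c1, Eif2c2 and Eif2c3 are Ago1, Ago2 and Ago3. The last 3 are argonautes, the small-RNA binding proteins of RNA silencing, and are described apart. The rule also took genes that regulate these factors, among them 4 eIF2 kinases, 2 repressors that bind eIF4E and the eEF2 kinase gene Eef2k, so the label does not describe all 57.

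In initiation, the small ribosomal subunit with eIF1, eIF1A, eIF3, eIF5 and the eIF2 complex carrying initiator tRNA is brought to the capped end of a messenger RNA by eIF4F, which consists of the cap-binding protein eIF4E, the scaffold eIF4G and the helicase eIF4A. The complex scans to the start codon, eIF2 is released and is recharged by its exchange factor eIF2B, and eIF5B joins the large subunit. eEF1 then delivers aminoacyl-tRNAs and eEF2 moves the ribosome along. Control acts mainly at eIF4E, which 4E-binding proteins sequester, and at eIF2, which stress kinases phosphorylate so that eIF2B is blocked. The liver makes large amounts of secreted plasma protein, and both controls are known to respond there to amino acids, insulin and endoplasmic reticulum stress.

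The liver came from Sprague-Dawley rats, taken after 3, 6 and 9 weeks of carbon tetrachloride, a solvent that injures hepatocytes and is used to model cirrhosis, or as normal liver at 0h. Each of these 4 groups had 3 arrays of the Affymetrix Rat Genome 230 2.0 type. The age label is 12 weeks in all groups, and 0h is the only normal group, so treatment and elapsed time cannot be told apart. Arrays that share a group are labelled technical replicates, so p-values measure the spread between arrays, not between animals. In whole tissue, fewer cells of a type and less RNA per cell cannot be told apart.

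Signals are in the authors' scaled units, with a trimmed mean of 500.2 on every array, and array medians lay between 7.09 and 7.31 on the log2(signal + 16) scale. All 7 hepatocyte markers were bright in every group, and their summed signal was 257518 to 300415 at 0h, 254446 to 286059 at 3 weeks, 198556 to 229735 at 6 weeks and 209138 to 233647 at 9 weeks. The summed signal of 5 cycling-cell markers was 743 to 823 at 0h, 814 to 957 at 3 weeks, 2104 to 2686 at 6 weeks and 1998 to 2065 at 9 weeks, and all 5 passed the test as higher at 6 and at 9 weeks than at 0h. Lymphocyte markers, 6 in number, summed to 2462 to 2715 at 0h, 2339 to 2602 at 3 weeks, 583 to 701 at 6 weeks and 2475 to 2569 at 9 weeks. Ccl5 made up most of these lymphocyte sums. Single markers differed: at 9 weeks against 0h Gzma was lower, at -1.42, while Cd3d and Cd8a were higher, at 0.69 and 0.76. Cd8a changed by -0.01 at 6 weeks against 0h. Macrophage markers, 5 in number, summed to 13040.0 to 13236 at 0h, 14192 to 15089.9 at 3 weeks, 7898 to 8467 at 6 weeks and 12797 to 13552 at 9 weeks. C1qa made up most of these sums. Cd163 took another course, with -0.69 at 3 weeks against 0h and 0.545 at 6 against 3 weeks on the log2 scale. The 4 red cell markers summed to 58522 to 65198 at 0h, 55004 to 58559 at 3 weeks, 12471 to 13879 at 6 weeks and 32182 to 34134 at 9 weeks. The 4 pancreas markers summed to 7159 to 7925 at 0h, of which Cpa1 made up most, and to between 283 and 675 in the treated groups. Stellate cell and fibroblast markers, 7 in number, summed to 5149 to 5303 at 0h, 14441 to 15202 at 3 weeks, 8586 to 8893 at 6 weeks and 8974 to 9165 at 9 weeks, with 5, 4 and 5 of the 7 called as higher at 3, 6 and 9 weeks. The 5 endothelial markers summed to 4609 to 4922 at 0h, 4234 to 4575 at 3 weeks, 2801 to 3017 at 6 weeks and 3748 to 4034 at 9 weeks, and the 5 bile duct markers to 1238 to 1276 at 0h, 1178 to 1371 at 3 weeks, 883 to 1091 at 6 weeks and 1845 to 1923 at 9 weeks. Of the bile duct markers 2 were bright enough to be tested, and Epcam made up most of the sums. The part of these cell mixtures in the values below was not tested.

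A gene was called when its Benjamini-Hochberg adjusted p from limma was under 0.05 over 10319 genes and its change was at least 1.5-fold, or 0.585 on the log2(signal + 16) scale. Of the 57 members 56 passed the filter on low signal. At 3 weeks against 0h, 4 members rose and 2 fell, where 8.97% of all genes tested rose and 4.86% fell; these are 7.14% and 3.57% of the members tested. At 6 weeks against 0h 11 members rose (19.6% of those tested, against 13.8% of all genes) and 3 fell (5.36% against 10.8%). At 9 weeks 10 rose (17.9% against 15.7%) and 3 fell (5.36% against 9.55%). The difference of these shares from those of all genes was not tested, and in numbers of members it is small. The 3 comparisons share the 0h arrays. Among the falls at each time is Eef1a2, a dim gene that passed the filter on low signal through its 0h arrays, where it was highest.

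Most members changed by less than 1.5-fold. Without a limit on size, 17 members rose and 17 fell at 3 weeks (all genes 22.5% and 20.0%), 34 rose and 9 fell at 6 weeks (30% and 24.4%), and 31 rose and 8 fell at 9 weeks (32.9% and 22.8%). As shares of the 56 members tested, the rises were 30.4%, 60.7% and 55.4%. The median member changed by -0.02 at 3 weeks, 0.24 at 6 weeks and 0.25 at 9 weeks on the log2 scale, beside 0.01, 0.03 and 0.07 for all genes. Members above 0 numbered 24, 40 and 43 of 56, or 42.9%, 71.4% and 76.8%, beside 51.5%, 53.2% and 56.0% of all genes. At 2-fold or more, 1 member rose and 2 fell at 3 weeks (all genes 2.93% and 1.29%), 3 rose and 1 fell at 6 weeks (5.16% and 4.44%), and 2 rose and 1 fell at 9 weeks (6.33% and 3.62%).

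These counts rest on the brightest probe set of each gene, and other probe sets often differed. Of the 24 members with another kept probe set, 13, 12 and 16 had at least 1 of the opposite sign at 3, 6 and 9 weeks against 0h, and 8 at 6 against 3 weeks. With the second brightest probe set in place of the brightest for these 24, the median member changed by 0.003, 0.29 and 0.14 at 3, 6 and 9 weeks and by 0.30 from 3 to 6 weeks, and 28, 41, 35 and 47 of 56 lay above 0. Of 18 calls in members with a second kept probe set, 5 were also made on it (3 of Eif1a and 2 of Eif4e3), 8 were lost and 5 had the opposite sign.

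**Figure D1:**
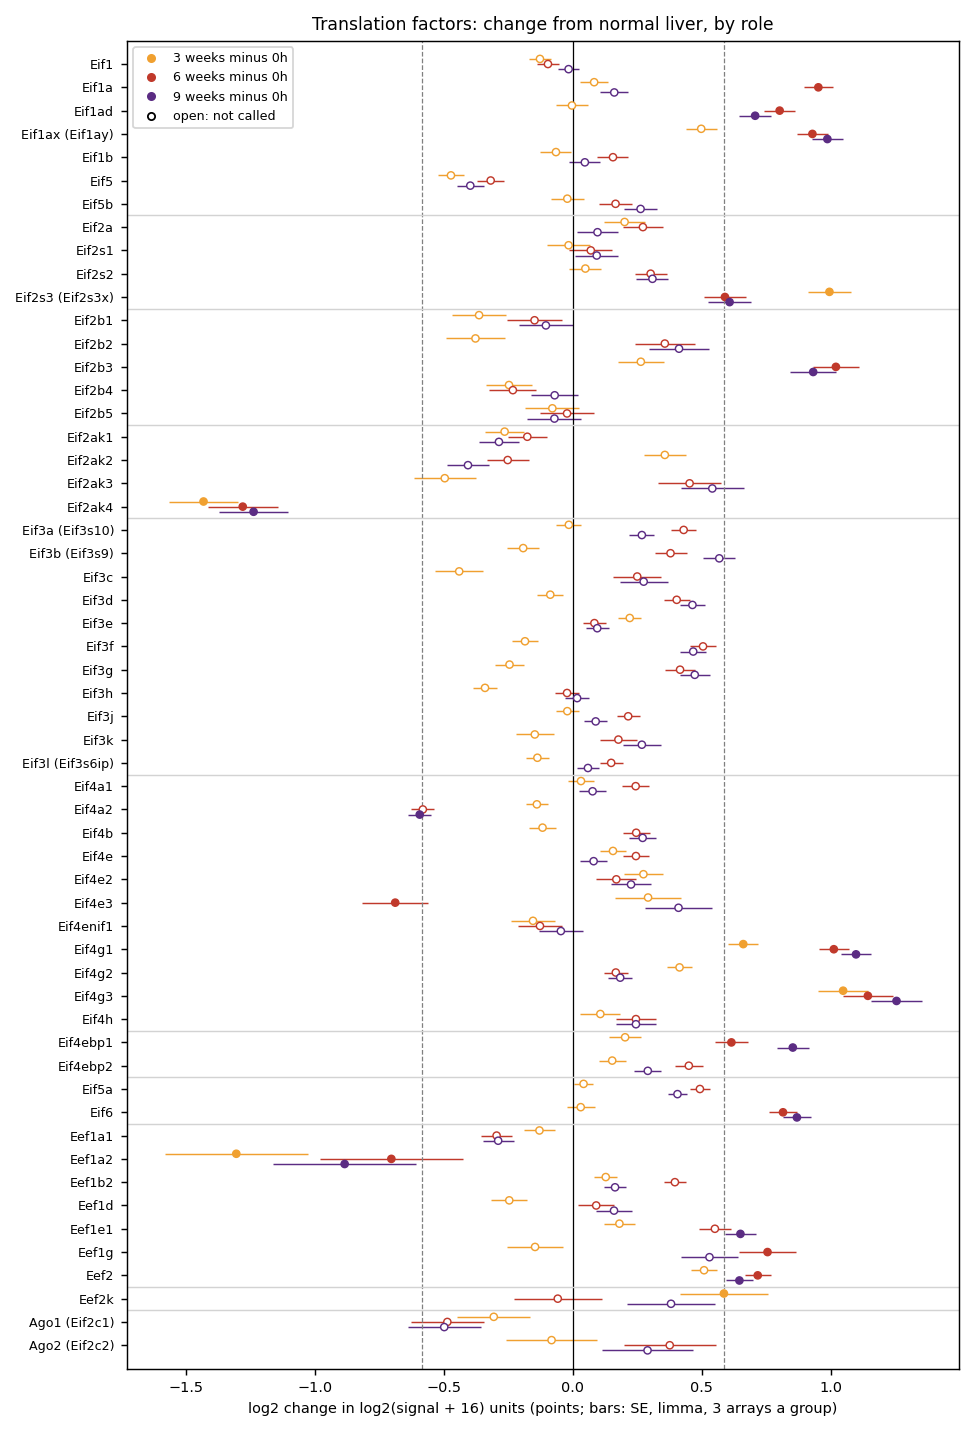
Log2 change from normal liver at 0h of the 56 members that passed the filter, each on its brightest probe set and grouped by role, after 3, 6 and 9 weeks of carbon tetrachloride (points, with SE from limma, 3 arrays a group); filled points were called and dashed lines mark 1.5-fold. Eif4g3 and Eif4g1 lie to the right at all 3 times, Eif2ak4 lies to the left at all 3, and most eIF3 subunits lie left of 0 at 3 weeks and right of it at 6 and 9 weeks.

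Consecutive times were also compared directly. At 6 weeks against 3 weeks 10 members rose (17.9%, against 9.17% of all genes) and 3 fell (5.36% against 10.7%), and 46 of 56 lay above 0, or 82.1%, beside 52.0% of all genes. The median member changed by 0.24 and the median gene by 0.02. All 5 cycling-cell markers rose in this step, with a median of 1.06, and were not called from 6 to 9 weeks, with a median of -0.14; their part in the members' values was not tested. Without a size limit 33 rose and 8 fell (all genes 26.3% and 22.7%), while at 2-fold 0 rose and 0 fell by limma (all genes 3.21% and 4.31%). At 9 weeks against 6 weeks 1 member rose and 1 fell, where 5.26% of all genes rose and 2.42% fell, and the members' median change was 0.01 beside 0.03. Without a size limit 3 rose and 7 fell (14.8% and 11%), and at 2-fold 1 rose and 0 fell (1.94% and 0.581%). Centring each array on its median in place of the authors' scaling moved the median gene at 3 weeks against 0h from 0.01 to -0.085, a shift of about 0.1; with that scaling 2 members rose and 3 fell at 3 weeks, and 11 rose and 1 fell from 3 to 6 weeks.

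**Figure D2:**
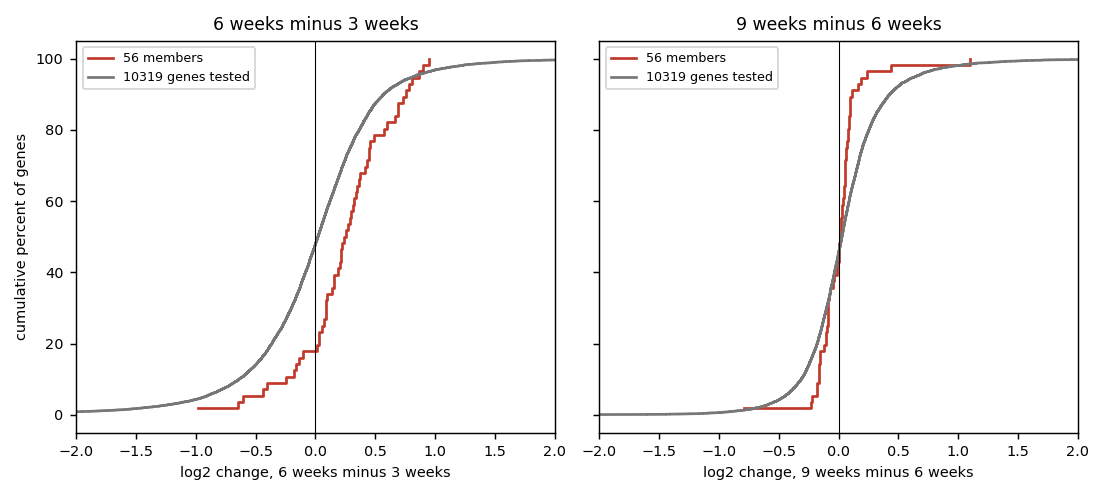
Cumulative percent of genes (vertical axis) against log2 change (horizontal axis) for 6 weeks minus 3 weeks (left) and 9 weeks minus 6 weeks (right), for the 56 members (red) and all 10319 genes tested (grey). In the left panel the members' curve lies to the right of the grey one over most of its range, with medians of 0.24 and 0.02, and in the right panel the members' curve is steeper and both cross the middle near 0.

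Promoter sequence was set beside these values because many members moved together. RefSeq windows from 250 bases before to 50 bases after the annotated start, on build GRCr8, were available for 50 members. The letters CACGTG, the palindromic E-box that Myc with Max and related factors can bind, were searched; the motif reads the same on both strands. It was present in 10 of 50 members (20.0%), in 1943 of 27457 genes with a window (7.08%) and in 776 of 7889 genes tested (9.8%), while median GC content was 61.0% in members and 60.7% in genes tested. The members with the motif were Eif3a, Eif3b, Eif3f, Eif4e, Eif4g1, Eif4h, Eif5a, Eef2, Eef2k and Eif1b. For 6 of them, chosen to show a scaffold, a cap-binding protein, a pair of eIF3 subunits, eIF5A and eEF2, 60 bases that end before the annotated start are printed 5′ to 3′ on the gene's strand, with the motif in capitals. Eif4e and Eif4g1 each hold a second motif outside the bases printed, at -80 and at 16 counted from the annotated start.
Eif4g1 (chr11:93746389-93746448, minus strand, motif 54 bases before the start): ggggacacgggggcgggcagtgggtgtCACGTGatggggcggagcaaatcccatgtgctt
Eif4e (chr2:229740503-229740562, plus strand, 237 bases before): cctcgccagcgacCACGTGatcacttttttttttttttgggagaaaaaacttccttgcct
Eif3f (chr1:172368976-172369035, plus strand, 59 bases before): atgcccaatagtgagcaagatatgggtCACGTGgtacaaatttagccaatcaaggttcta
Eif3b (chr12:19334793-19334852, minus strand, 57 bases before): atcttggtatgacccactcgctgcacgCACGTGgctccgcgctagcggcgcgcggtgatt
Eif5a (chr10:55143395-55143454, minus strand, 206 bases before): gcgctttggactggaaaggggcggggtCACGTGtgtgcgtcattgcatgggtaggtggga
Eef2 (chr7:9189282-9189341, minus strand, 76 bases before): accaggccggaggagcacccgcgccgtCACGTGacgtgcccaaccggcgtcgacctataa

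Members with and without these letters both moved up between 3 and 6 weeks. Of the 10 with the motif, 9 lay above 0 at 6 against 3 weeks with a median change of 0.29, and of 39 tested members without it 32 lay above 0 with a median of 0.21. At 9 weeks against 0h the counts were 10 of 10 with a median of 0.39 and 26 of 39 with a median of 0.16, on the brightest probe sets. Of the 10, 5 have a second kept probe set, and 4 of these lay below 0 at 9 weeks on it. In calls, 1 of 10 with the motif and 9 of 39 without it rose from 3 to 6 weeks, where 9.17% of all genes rose. Against 0h, 2 of 10 and 8 of 39 rose at 6 weeks, and 2 of 10 and 7 of 39 at 9 weeks. Of all genes 13.8% and 15.7% rose at these times. The difference between members with and without the motif was not tested. The match is a description of the letters in this window.

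Eif4g3 gave the largest rise of the 56 members at each time. This second eIF4G form, which bridges the cap-binding protein and the ribosome, had a signal of 414, 380.1 and 464 at 0h, 876, 1018 and 768 at 3 weeks, 984, 933 and 913 at 6 weeks and 1008, 1066 and 987 at 9 weeks. All treated arrays lay above all 0h arrays. The change from 0h came to 1.05 ± 0.10 at 3 weeks, 1.14 ± 0.10 at 6 weeks and 1.25 ± 0.10 at 9 weeks (log2 ± SE, adjusted p 2.1e-07, 2.64e-08 and 8.79e-09, limma), and neither step between later times was called. In the authors' deposited table the mean log2 ratio of this probe set was 0.93, 1.04 and 1.17 at the 3 times. Of the 33 member calls against 0h, all 33 had the same sign in the authors' deposited table, and 5 were under 1.5-fold there: Eif4ebp1 at 6 and 9 weeks and Eif2s3x, Eif4a2 and Eef1e1 at 9 weeks. The summed signal of the stellate cell and fibroblast markers given above, most of it from Col3a1, was higher at each treated time than at 0h. It was lower at 6 than at 3 weeks, a step in which Col1a1, Col3a1 and Acta2 fell. In that step Eif4g3, Eif4g1 and Eef2 changed by 0.10, 0.35 and 0.21. Of the 7 markers, 5, 4 and 5 were called as higher at 3, 6 and 9 weeks, while Lrat changed by 0.12, -0.36 and -0.17. The part of these markers in the values of Eif4g3, Eif4g1 and Eef2 was not tested.

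Eif4g1, the main eIF4G scaffold, had a signal of 1209.8, 1365 and 1189.9 at 0h, 1944, 2097 and 1928 at 3 weeks, 2550.4, 2627 and 2447 at 6 weeks and 2725, 2679 and 2688 at 9 weeks on its brightest probe set. The 12 values formed 4 separate levels that did not overlap, with changes from 0h of 0.66 ± 0.06, 1.01 ± 0.06 and 1.097 ± 0.06 (adjusted p 1.42e-07, 2.2e-10 and 8.41e-11). The other 4 kept probe sets of the gene differed from it. The second brightest changed by -0.25, 0.36 and 0.07 at 3, 6 and 9 weeks (adjusted p 0.158, 0.0341 and 0.746), and the next by -0.63, -0.08 and -0.76. The fourth gave -0.17, -0.67 and -0.51, and the fifth and dimmest lay above 0h at 0.13, 0.25 and 0.71 with an SE of 0.49 (adjusted p 0.893, 0.773 and 0.316). The rise of Eif4g1 from 0h was thus called on 1 of 5 probe sets, and at 3 weeks its call was also lost when arrays were centred on their median, at 0.56. Positions of the probes on the transcript were not used here.

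Eif4g2 and Eif4e were called in no comparison on their brightest probe sets. Eif4g2, an eIF4G relative that lacks the cap-binding protein's site, had a signal of 11232, 11352 and 11413 at 0h, 14396, 15348 and 15569.5 at 3 weeks, 13575, 12452 and 12160.4 at 6 weeks and 13118, 12494 and 13001 at 9 weeks, a rise at 3 weeks of 0.41 ± 0.05 (adjusted p 2.17e-06) that was under 1.5-fold and was smaller at 6 and 9 weeks, at 0.17 ± 0.05 and 0.18 ± 0.05. Its second probe set gave another course, with 0.60, 0.64 and -0.20 at 3, 6 and 9 weeks (adjusted p 4.24e-08, 6.17e-09 and 0.0014), and the third gave -0.01, -0.395 and -0.05. Eif4e, which binds the cap itself, read 3186, 2880.1 and 2981 at 0h, 3354, 3428 and 3293 at 3 weeks, 3732, 3393 and 3597 at 6 weeks and 3209, 3099 and 3252 at 9 weeks. Its arrays at 6 weeks lay above those at 0h by 0.24 ± 0.05 (adjusted p 0.000606), while 9 weeks overlapped with 0h at 0.08 ± 0.05 (adjusted p 0.195). A second, dim probe set gave 0.45 and -0.86 (adjusted p 0.576 and 0.236). The gene has 10 annotated pseudogenes, whose part in the signal was not tested.

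Eif4a2 and Eif4e3 were the genes of the cap complex called as lower against 0h. Eif4a2, a helicase of the complex, read 9901, 10691 and 9568 at 0h, 8906, 9198 and 9238 at 3 weeks, 6784, 6819.8 and 6513 at 6 weeks and 6704, 6653 and 6581 at 9 weeks, so that every array at 6 and 9 weeks lay below every array at 0h and 3 weeks. Its change was -0.59 ± 0.04 at 9 weeks (adjusted p 5.82e-09), just past the size limit, and -0.58 ± 0.04 at 6 weeks, just inside it. Leaving out the second 0h array made the 9-week change -0.55 and ended the call, and quantile normalization made it -0.41. The second probe set gave -0.51 at 9 weeks (adjusted p 0.0364), under the limit, and 0.055 at 6 weeks (adjusted p 0.864). Its close paralog Eif4a1 changed by 0.24 ± 0.05 at 6 weeks and 0.08 ± 0.05 at 9 weeks, neither called. The difference between the paralogs was not tested.

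Eif4e3, a cap-binding protein of the eIF4E family, was lowest at 6 weeks. It read 352, 399 and 365 at 0h, 395, 496 and 490.1 at 3 weeks, 244, 205 and 226 at 6 weeks and 425, 564 and 516 at 9 weeks. The 3 arrays at 6 weeks were below the other 9. It fell at 6 weeks by 0.69 ± 0.13 against 0h (adjusted p 0.00021) and by 0.98 ± 0.13 against 3 weeks (adjusted p 6.03e-06), and rose at 9 weeks by 1.098 ± 0.13 against 6 weeks (adjusted p 5.98e-06). Its second probe set gave -0.59, -0.60 and 0.56 for the same 3 comparisons. Markers of several cell types moved alike. At 6 weeks against 0h, 4 of 5 lymphocyte, 3 of 5 macrophage, 4 of 4 red cell and 2 of 5 endothelial markers tested fell. At 9 weeks against 6 weeks, 5, 4, 3 and 1 of these lists rose, as did both bile duct markers tested. Of 7 hepatocyte markers 1 fell at 6 weeks and none rose at 9 against 6 weeks. Of all genes 10.8% fell and 5.26% rose in these comparisons. The part of these markers in the values of Eif4e3 was not tested.

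**Figure D3:**
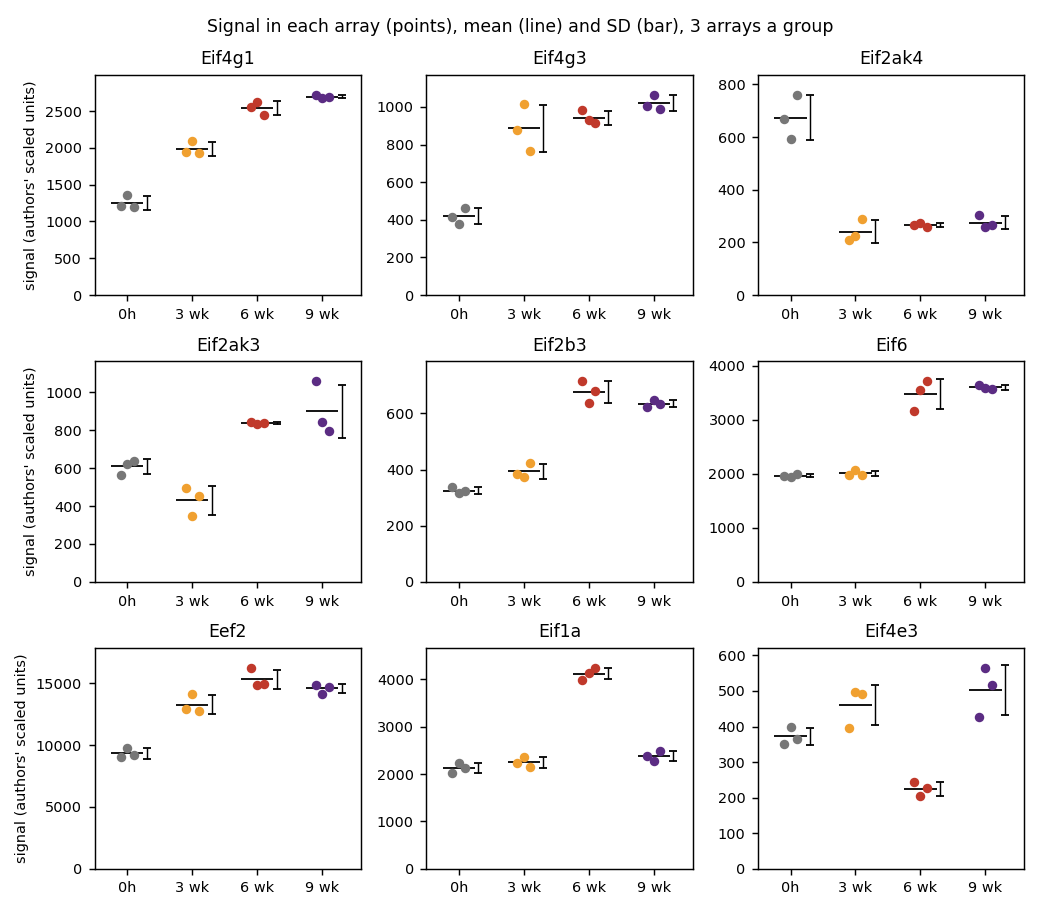
Signal in the authors' scaled units (vertical axis, from 0) of 9 members in each array (points), with the mean (line) and SD (bar) of the 3 arrays of normal liver at 0h and of 3, 6 and 9 weeks of carbon tetrachloride. Eif4g1 and Eif4g3 are higher at all treated times, Eif2ak4 is lower at all treated times, Eif6 and Eif2b3 are higher at 6 and 9 weeks, Eif1a peaks at 6 weeks and Eif4e3 is lowest there.

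Of the repressors that bind eIF4E, Eif4ebp1 rose. It read 945, 1059 and 945 at 0h, 1154, 1129 and 1112 at 3 weeks, 1503, 1604 and 1431 at 6 weeks and 1791, 1825 and 1739 at 9 weeks. The 4 groups did not overlap. The change was 0.20 ± 0.06 at 3 weeks, not called, 0.61 ± 0.06 at 6 weeks and 0.85 ± 0.06 at 9 weeks (adjusted p 0.0168, 3.12e-07 and 5.34e-09). The call at 6 weeks was lost without the second 6-week array, at 0.57, and under quantile normalization, at 0.575. The authors' deposited table gives mean log2 ratios of -0.24, 0.37 and 0.56 for this probe set at 3, 6 and 9 weeks, of the other sign at 3 weeks and under 1.5-fold at 6 and 9 weeks. Eif4ebp2, its paralog, changed by 0.45 ± 0.05 at 6 weeks and 0.29 ± 0.05 at 9 weeks (adjusted p 1.76e-06 and 0.000191), under 1.5-fold.

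Among 7 genes of start-codon scanning and subunit joining, 3 rose at 6 weeks and 2 at 9 weeks, where 13.8% and 15.7% of all genes rose, and none was called at 3 weeks, where 8.97% rose and 4.86% fell. Eif1a, one of the genes for the factor eIF1A that stabilises scanning ribosomes, read 2022, 2233 and 2124 at 0h, 2245, 2369 and 2142 at 3 weeks, 3996, 4138 and 4236 at 6 weeks and 2376, 2275 and 2480.0 at 9 weeks. The 6-week arrays lay far above the other 9, and the gene rose at 6 weeks by 0.95 ± 0.055 against 0h and by 0.87 ± 0.055 against 3 weeks (adjusted p 1.94e-10 and 7.48e-10) and fell at 9 weeks by 0.79 ± 0.055 against 6 weeks (adjusted p 1.15e-08). Both other probe sets of Eif1a were also highest at 6 weeks, with 0.95 and 0.98 at 6 weeks against 0h and -1.21 and -0.74 at 9 against 6 weeks. It was the only member called as lower at 9 than at 6 weeks.

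Eif1ay, an eIF1A gene now named Eif1ax, took another course. Its signal was 1039, 1226 and 1094 at 0h, 1569, 1608 and 1574 at 3 weeks, 2122, 2195 and 2102 at 6 weeks and 2196, 2290.2 and 2203 at 9 weeks, with 6 and 9 weeks both above 3 weeks and 3 weeks above 0h. The change from 0h was 0.50 ± 0.06, under the size limit, then 0.93 ± 0.06 and 0.99 ± 0.06 (adjusted p 4.38e-06, 7.73e-10 and 3.9e-10). Eif1ad, a gene with an eIF1A-like domain, read 1052, 1048 and 1136 at 0h, 1109, 1074 and 1043 at 3 weeks, 1978, 1823 and 1873 at 6 weeks and 1752, 1869 and 1689 at 9 weeks. Its 3-week arrays overlapped with 0h and its 6-week arrays lay above both, with 0.80 ± 0.06 at 6 weeks and 0.71 ± 0.06 at 9 weeks against 0h (adjusted p 6.35e-09 and 3.45e-08) and 0.805 ± 0.06 at 6 against 3 weeks (adjusted p 7.4e-09).

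On their brightest probe sets, the remaining scanning factors were called in no comparison with 0h. Eif1, which keeps the scanning complex open, read 13829, 13762 and 13319 at 0h, 12514, 12394 and 12507 at 3 weeks, 13342, 12249 and 12670.2 at 6 weeks and 13533, 13137 and 13773 at 9 weeks, and its changes lay between -0.13 and -0.02. The second probe set of Eif1 differed, with 0.08, 0.46 and 0.69 at 3, 6 and 9 weeks (adjusted p 0.609, 0.00141 and 3.31e-05), past 1.5-fold at 9 weeks. Eif5, the protein that triggers GTP hydrolysis by eIF2 at the start codon, read 8092, 7696 and 8359.9 at 0h, 5704, 6008 and 5672 at 3 weeks, 6765, 6526 and 6071 at 6 weeks and 6452, 5827 and 6039.9 at 9 weeks. All its treated arrays lay below all 0h arrays, by -0.47 ± 0.05, -0.32 ± 0.05 and -0.40 ± 0.05 (adjusted p 1.71e-06, 6.13e-05 and 5.5e-06), which is under 1.5-fold. Its second probe set gave -0.38, -0.08 and -0.02 (adjusted p 4.7e-05, 0.263 and 0.833) and the third -0.38, -0.05 and -0.52 (adjusted p 0.000707, 0.634 and 1.92e-05), so the fall was common to the 3 probe sets at 3 weeks but not at 6 and 9 weeks. Eif5 has 9 annotated pseudogenes and Eif1 has 8.

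Of the 4 kinases that phosphorylate eIF2, 1 was called against 0h, as lower at 3, 6 and 9 weeks. Of all genes 4.86%, 10.8% and 9.55% fell at these times. Eif2ak4, the amino acid sensor GCN2, read 668, 591 and 761 at 0h, 208, 224 and 290.2 at 3 weeks, 267, 274 and 259 at 6 weeks and 302, 257 and 267 at 9 weeks, and every treated array lay below every 0h array. It fell by 1.43 ± 0.135 at 3 weeks, by 1.28 ± 0.135 at 6 weeks and by 1.24 ± 0.135 at 9 weeks (adjusted p 2.61e-07, 4.12e-07 and 6.43e-07), with no called step between the treated times. The authors' deposited table gives smaller mean log2 ratios for this probe set, -0.69, -0.94 and -0.87 at the 3 times. Of 3 pancreas markers tested, 2 fell at 3 weeks and all 3 at 6 and at 9 weeks; their part in the values of Eif2ak4 was not tested.

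Eif2ak3, the endoplasmic reticulum stress sensor PERK, read 564, 624 and 640.3 at 0h, 494, 346 and 452 at 3 weeks, 841, 833 and 840.2 at 6 weeks and 1057, 843 and 797 at 9 weeks. The 3-week arrays were the lowest of all 12 and the 6-week and 9-week arrays the highest. The gene rose at 6 weeks by 0.95 ± 0.12 against 3 weeks (adjusted p 4.55e-06); against 0h it changed by -0.50 ± 0.12, 0.45 ± 0.12 and 0.54 ± 0.12 (adjusted p 0.00319, 0.00436 and 0.00109), under 1.5-fold each time. Eif2ak2, the interferon-induced double-stranded RNA sensor PKR, went the opposite way, with 748, 839 and 758 at 0h, 920.5, 1069 and 1027 at 3 weeks, 634, 704 and 623 at 6 weeks and 586, 594 and 574 at 9 weeks. It fell at 6 weeks by 0.61 ± 0.08 against 3 weeks (adjusted p 7.73e-06), a call that was lost without the second 3-week array or without the third 6-week array, at -0.56 and -0.58, and when arrays were centred on their median, at -0.54. Eif2ak1, the heme-regulated kinase, changed by -0.265 ± 0.08, -0.18 ± 0.08 and -0.29 ± 0.08 against 0h on its brightest probe set. Its second probe set had the opposite sign at every time, with 0.54, 0.43 and 0.57 (adjusted p 1.01e-05, 5.3e-05 and 2.49e-06), so the direction of Eif2ak1 is not settled.

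The targets of these kinases are the eIF2 subunits, of which 1 was called against 0h, as higher at 3, 6 and 9 weeks. Of all genes 8.97%, 13.8% and 15.7% rose at these times. Eif2s1, the alpha subunit that carries the phosphorylated site, read 2506, 1989 and 2382 at 0h, 2320.0, 2397 and 2059 at 3 weeks, 2484, 2409 and 2291 at 6 weeks and 2497, 2619 and 2199.6 at 9 weeks, with all 4 groups overlapping and changes of -0.02 ± 0.08, 0.07 ± 0.08 and 0.09 ± 0.08. Eif2s2, the beta subunit, read 3983, 4477 and 3795 at 0h, 4172, 4557 and 3938 at 3 weeks, 5004, 4932 and 5142 at 6 weeks and 5103, 5202 and 4844 at 9 weeks and changed by 0.30 ± 0.06 and 0.31 ± 0.06 at 6 and 9 weeks (adjusted p 0.000558 and 0.000456), under 1.5-fold. The gamma subunit gene Eif2s3x rose on its brightest probe set, which read 980.4, 1054 and 1097 at 0h, 2009, 2021 and 2257 at 3 weeks, 1553, 1802 and 1399.7 at 6 weeks and 1584, 1690.2 and 1522 at 9 weeks. All treated arrays lay above 0h there, by 0.99 ± 0.08, 0.59 ± 0.08 and 0.61 ± 0.08 (adjusted p 5.64e-08, 1.11e-05 and 7.98e-06).

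The other probe sets of Eif2s3x had the opposite sign at every time. The second gave -0.385, -0.13 and -0.08, and the third -0.78, -0.58 and -1.58, so the 3 probe sets of this gene disagree in direction. The calls at 6 and 9 weeks were also lost without the first 0h array, at 0.545 and 0.56, and without the second 6-week or second 9-week array, at 0.49 and 0.57. Centring on the median gave 0.56 and 0.58.

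**Figure D4:**
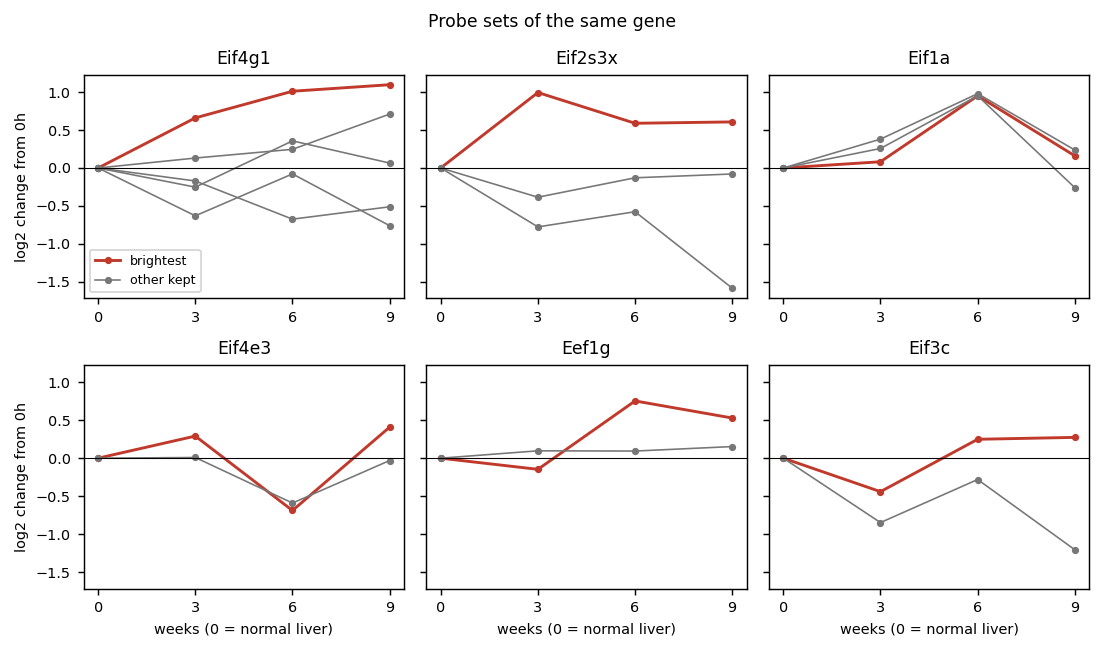
Log2 change from normal liver at 0h (vertical axis) after 3, 6 and 9 weeks (horizontal axis, 0 for normal liver) on the brightest probe set (red) and the other kept probe sets (grey) of 6 genes. The lines run together for Eif1a and Eif4e3 at 6 weeks, and the brightest probe set departs from the others for Eif4g1, Eif2s3x and Eef1g.

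Within eIF2B, the exchange factor of 5 subunits, 1 rose at 6 and 9 weeks against 0h, where 13.8% and 15.7% of all genes rose. From 3 to 6 weeks 2 of its subunits rose, where 9.17% of all genes rose. Eif2b3, the gamma subunit of its catalytic part, read 338, 316 and 322 at 0h, 384, 374 and 424 at 3 weeks, 714, 636 and 679.9 at 6 weeks and 621, 648 and 635 at 9 weeks. The arrays at 6 and 9 weeks lay above all others, and the gene rose by 1.02 ± 0.09 at 6 weeks and 0.93 ± 0.09 at 9 weeks against 0h and by 0.76 ± 0.09 at 6 weeks against 3 weeks (adjusted p 3.62e-08, 1.24e-07 and 1.79e-06). Eif2b2, the beta subunit of the regulatory part, read 573, 582 and 623 at 0h, 550.5, 469 and 358 at 3 weeks, 787, 769.9 and 732 at 6 weeks and 810.3, 822 and 748 at 9 weeks. It rose at 6 weeks by 0.73 ± 0.12 against 3 weeks (adjusted p 4.8e-05), but by 0.57, under the limit, without the third 3-week array, which was the lowest of the 12.

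The other 3 subunits were called in no comparison. Eif2b4, the delta subunit, read 1047, 1216 and 1129 at 0h, 863, 882 and 1118 at 3 weeks, 1003, 934 and 938 at 6 weeks and 1144, 1046 and 1033 at 9 weeks and changed by -0.25 ± 0.09, -0.23 ± 0.09 and -0.07 ± 0.09. Eif2b1, the alpha subunit, changed by -0.36, -0.15 and -0.105 at 3, 6 and 9 weeks (SE 0.105, adjusted p 0.0103, 0.249 and 0.421). The authors' deposited table gives mean log2 ratios of -0.33, 0.11 and 0.13 for this probe set. Eif2b5, the catalytic epsilon subunit, changed by -0.08, -0.02 and -0.07 (SE 0.105). Its second probe set gave 0.33, 0.14 and -0.085 (adjusted p 0.107, 0.511 and 0.711). Whether Eif2b3 differs from the other subunits was not tested.

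Among the members, 11 were subunits of eIF3, the scaffold on the small ribosomal subunit. On their brightest probe sets these were called in no comparison with 0h, but most lay on the same side of 0 at each time. At 3 weeks 1 of 11 lay above 0 (median -0.15), at 6 weeks 10 of 11 (median 0.25) and at 9 weeks 11 of 11 (median 0.27, range 0.02 to 0.57). Without a size limit, 1 rose and 6 fell at 3 weeks, 8 rose and none fell at 6 weeks, and 7 rose and none fell at 9 weeks; of all genes 22.5% rose and 20.0% fell at 3 weeks, 30% and 24.4% at 6 weeks and 32.9% and 22.8% at 9 weeks. At 6 weeks against 3 weeks 10 of 11 lay above 0 with a median of 0.445, and 3 were called as higher, where 9.17% of all genes rose.

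Other probe sets of eIF3 subunits had the same sign from 3 to 6 weeks but mostly the opposite sign at 9 weeks against 0h. Of 5 subunits with another kept probe set, 4 lay below 0 on it at 9 weeks against 0h: Eif3c at -1.21, Eif3s10 at -0.485, Eif3s6ip at -0.44 and Eif3j at -0.32 (adjusted p 1.92e-08, 0.00634, 5.84e-05 and 0.000873). With the second probe set in place of the brightest for these subunits, 3, 8 and 7 of 11 lay above 0 at 3, 6 and 9 weeks, with medians of -0.19, 0.32 and 0.09. At 6 against 3 weeks all 5 had the sign of the brightest probe set, and 10 of 11 lay above 0 with a median of 0.49.

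The 3 called as higher at 6 than at 3 weeks were Eif3c, Eif3f and Eif3g. Eif3f, a subunit with an MPN domain, read 3326, 3468 and 3490.5 at 0h, 2782, 3141 and 3124 at 3 weeks, 4940.4, 4968 and 4698 at 6 weeks and 4696, 4747 and 4775 at 9 weeks. Its 3-week arrays were the lowest and its 6-week and 9-week arrays the highest, with a rise at 6 weeks of 0.69 ± 0.05 against 3 weeks (adjusted p 4.98e-09). Eif3g, an RNA-binding subunit that acts in scanning, read 3922, 3704 and 3806 at 0h, 3564, 3177 and 2922 at 3 weeks, 5055, 5120.5 and 5085 at 6 weeks and 5349, 5133 and 5391 at 9 weeks, with its 3-week arrays again the lowest and its 6-week and 9-week arrays the highest, and a rise of 0.66 ± 0.06 (adjusted p 5.31e-08).

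Eif3c, a core subunit, read 3149.6, 2702 and 3377 at 0h, 2356, 2299 and 2106 at 3 weeks, 3309.6, 3953 and 3694 at 6 weeks and 4277, 3610.0 and 3302 at 9 weeks and rose at 6 weeks by 0.69 ± 0.09 against 3 weeks (adjusted p 9.04e-06). Its second probe set gave 0.57 for this step, under the limit, and differed at 9 weeks against 0h, at -1.21 beside 0.27 ± 0.09. For the brightest probe set of Eif3c the authors' deposited mean log2 ratios against 0h were -0.01, 0.29 and 0.30 at 3, 6 and 9 weeks. The values here were -0.44, 0.25 and 0.27, so the low 3-week level was not seen in the authors' ratios. Eif3s9, the core subunit eIF3b, had the largest change from 0h among the brightest probe sets of eIF3 genes, with 1475, 1409 and 1507 at 0h, 1283, 1237 and 1314 at 3 weeks, 1968, 1896 and 1856 at 6 weeks and 2216, 1984 and 2340.2 at 9 weeks and a change of 0.57 ± 0.06 at 9 weeks (adjusted p 7.14e-07), just inside the limit.

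Eif3e was the exception in direction. This subunit, which contacts the cap complex, read 5769, 5444 and 5668 at 0h, 6384, 6495 and 6794 at 3 weeks, 6222, 5885 and 5775 at 6 weeks and 6167, 5988 and 5868 at 9 weeks, highest at 3 weeks, with 0.22 ± 0.045 against 0h (adjusted p 0.000788) and -0.14 ± 0.045 at 6 weeks against 3 weeks (adjusted p 0.017). No other eIF3 subunit among the members lay above 0 at 3 weeks on its brightest probe set. On the second, Eif3k gave 0.745 (adjusted p 0.122) and Eif3s6ip 0.015. In the authors' deposited table Eif3s9 lay above 0 at 3 weeks, with a mean log2 ratio of 0.07 beside -0.19 here.

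**Figure D5:**
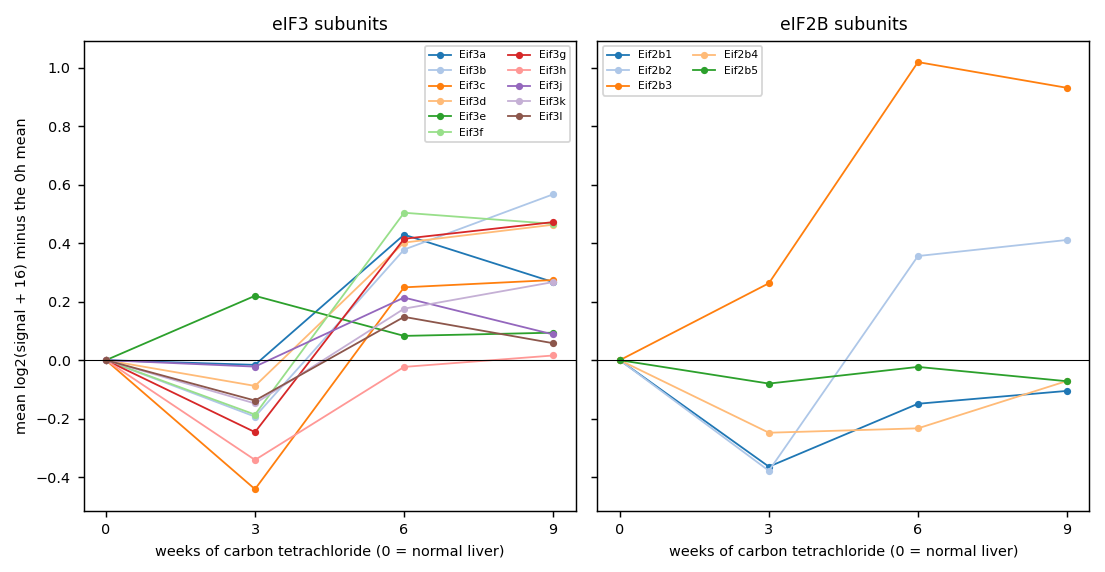
Mean log2(signal + 16) minus the 0h mean (vertical axis) of 11 eIF3 subunits (left) and 5 eIF2B subunits (right) against weeks of carbon tetrachloride (0 for normal liver); genes carry their current symbols. Each gene is drawn on its brightest probe set. Of the eIF3 subunits 10 lie below 0 at 3 weeks and all 11 lie above it at 9 weeks, while among the eIF2B subunits Eif2b3 separates from the rest.

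Eif6, which keeps the large ribosomal subunit from joining too early and is also needed to make that subunit, switched between 3 and 6 weeks. It read 1968, 1937 and 1995 at 0h, 1988, 2065 and 1972 at 3 weeks, 3172, 3547 and 3710.1 at 6 weeks and 3653, 3586 and 3569.6 at 9 weeks. The 3-week arrays overlapped with 0h and all later arrays lay above both. It rose by 0.81 ± 0.055 at 6 weeks and 0.87 ± 0.055 at 9 weeks against 0h and by 0.78 ± 0.055 at 6 against 3 weeks (adjusted p 1.31e-09, 6.41e-10 and 2.59e-09). Eif5a, the hypusine-bearing factor that helps ribosomes past stalling sequences, read 6799.8, 6854 and 6578 at 0h, 6914, 7143 and 6763 at 3 weeks, 9574, 9376 and 9520.0 at 6 weeks and 8982, 8882 and 8942 at 9 weeks. Its 3-week arrays also overlapped with 0h and its later arrays lay above both, with changes at 6 and 9 weeks of 0.49 ± 0.04 and 0.405 ± 0.04 (adjusted p 8.99e-09 and 1.15e-07), under 1.5-fold.

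Among the elongation factors, Eef2, the translocase, rose. It read 9014, 9808 and 9165 at 0h, 12947, 14137 and 12758 at 3 weeks, 16214, 14867 and 14916 at 6 weeks and 14904, 14159.9 and 14707 at 9 weeks, and all treated arrays lay above all 0h arrays. The change was 0.51 ± 0.05 at 3 weeks, under the size limit, 0.72 ± 0.05 at 6 weeks and 0.645 ± 0.05 at 9 weeks (adjusted p 5.37e-07, 2.63e-09 and 1.11e-08). Eef2k, the kinase that inactivates eEF2, read 162, 151 and 188 at 0h, 282, 286 and 212 at 3 weeks, 152, 169 and 157 at 6 weeks and 201, 196 and 275 at 9 weeks. It was higher at 3 weeks by 0.585 ± 0.17 against 0h (adjusted p 0.0112), a value that sits on the size limit, and fell at 6 weeks by 0.64 ± 0.17 against 3 weeks (adjusted p 0.0048).

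Neither call of Eef2k was firm. The first was lost without the first or second 0h array and without the first or second 3-week array (0.51 to 0.57), and under pseudocount 64, quantile normalization and median centring. The second was lost without the first or second 3-week array, at -0.58 and -0.57, and under pseudocount 64 and median centring, at -0.53 and -0.57. The second probe set gave 0.325 and -0.56, with adjusted p 0.409 and 0.131.

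The eEF1 genes differed in the sign of their changes. Eef1g, the gamma subunit of the exchange complex, read 7759.7, 6343 and 7645 at 0h, 7452, 5134 and 7234 at 3 weeks, 11732, 12350.1 and 12479 at 6 weeks and 11216, 10403 and 9706 at 9 weeks. The 6-week arrays lay above all 0h and 3-week arrays, with rises at 6 weeks of 0.75 ± 0.11 against 0h and 0.90 ± 0.11 against 3 weeks (adjusted p 1.57e-05 and 2.49e-06), and the second 3-week array was the lowest of the 12. A second, dimmer probe set changed by 0.09 and -0.003 in these comparisons, and the gene has 16 annotated pseudogenes. Eef1e1, a protein of the aminoacyl-tRNA synthetase complex, read 968, 912 and 1025 at 0h, 1058, 1093 and 1143 at 3 weeks, 1485, 1385 and 1404 at 6 weeks and 1544, 1519.6 and 1513 at 9 weeks and was called at 9 weeks, with 0.65 ± 0.06 (adjusted p 1.12e-07).

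Eef1a1, which carries aminoacyl-tRNAs to the ribosome, read 31088, 34398 and 28635 at 0h, 27324, 28824 and 29695 at 3 weeks, 26549, 24137 and 25787 at 6 weeks and 25795, 24539.8 and 26441 at 9 weeks. Its 6-week and 9-week arrays lay below all 0h arrays by -0.30 ± 0.06 and -0.29 ± 0.06 (adjusted p 0.000452 and 0.000537), under 1.5-fold. Eef1a1 has 20 annotated pseudogenes, whose part in the signal was not tested. Eef1a2, the form known from muscle and brain, was dim and lower in treated liver, with 130.3, 153 and 150.1 at 0h, 42.7, 42.4 and 63.3 at 3 weeks, 80.3, 91.1 and 76.1 at 6 weeks and 42.0, 105 and 77.1 at 9 weeks. It fell by 1.305 ± 0.28, 0.70 ± 0.28 and 0.885 ± 0.28 against 0h (adjusted p 0.00119, 0.0416 and 0.0124), with a wide spread at 9 weeks. Its mean lay just above the filter on low signal, a signal of 75.55. The group means were 144.4 at 0h and 49.5, 82.5 and 74.6 at 3, 6 and 9 weeks. The gene thus passed the filter through its 0h arrays, and its tests against 0h are not independent of that. Its other probe set, below the filter, gave 1.07, -0.34 and 0.03 (adjusted p 0.13, 0.667 and 0.977, limma). Leaving out any of the 6 arrays concerned ended the call at 6 weeks (adjusted p 0.0565 to 0.102), and leaving out the first 9-week array ended that at 9 weeks, at -0.60 (adjusted p 0.0778).

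Of the 3 argonautes, which act in RNA silencing, none was called on its brightest probe set. Eif2c1 (Ago1) read 552, 604 and 527 at 0h, 385, 422 and 558 at 3 weeks, 347, 373 and 475 at 6 weeks and 344, 408 and 426 at 9 weeks and changed by -0.49 ± 0.14 and -0.50 ± 0.14 at 6 and 9 weeks (adjusted p 0.00784 and 0.00654). Its second probe set gave 0.21 and 0.535 (adjusted p 0.217 and 0.00245). Eif2c2 (Ago2), the slicing argonaute, changed by 0.375 ± 0.18 at 6 weeks (adjusted p 0.0866). Eif2c3 (Ago3) was the member that did not pass the filter, with signals between 4.7 and 60.8.

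Partners of these factors were taken from a list of 48 genes of the same pathway, of which 42 were tested. At 3 weeks 2 rose and 2 fell, at 6 weeks 7 rose and 1 fell, at 9 weeks 9 rose and 1 fell, and at 6 against 3 weeks 7 rose and none fell; the percentages for all genes are those given above. The median changes from 0h were -0.07, 0.21 and 0.175 at 3, 6 and 9 weeks.

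The largest rises on the list at 6 and at 9 weeks were those of Trib3, Ppp1r15a and Ddit3. Ppp1r15a (GADD34), the stress-induced subunit that directs a phosphatase to eIF2, read 354, 262 and 325 at 0h, 314, 335 and 344 at 3 weeks, 818, 798 and 861 at 6 weeks and 885, 896 and 949.7 at 9 weeks. It rose by 1.36 ± 0.10 at 6 weeks and 1.501 ± 0.10 at 9 weeks against 0h (adjusted p 5.18e-09 and 1.69e-09), and its 3-week arrays overlapped with 0h. Trib3 and Ddit3, stress targets of the factor ATF4, rose by 3.49 ± 0.09 and 1.285 ± 0.09 at 6 weeks and by 3.34 ± 0.09 and 1.42 ± 0.09 at 9 weeks. Atf4 itself, whose translation increases when eIF2 is phosphorylated, changed by 0.36 ± 0.04 and 0.51 ± 0.04, under 1.5-fold.

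Dnajc3, an inhibitor of the eIF2 kinases, was, like Eif2ak3, lowest at 3 weeks and higher at 6 and 9 weeks than at 0h. It read 5985, 7296 and 7170.3 at 0h, 4322, 4659 and 4063 at 3 weeks, 9105, 8888 and 8705 at 6 weeks and 8504, 7958 and 8048 at 9 weeks. At 3 weeks it fell by 0.64 ± 0.07 against 0h, and it rose at 6 weeks by 1.03 ± 0.07 against 3 weeks (adjusted p 8.01e-07 and 9.56e-10). Pelo, which with its partner Hbs1l frees stalled ribosomes, read 853, 822 and 832 at 0h, 402, 373 and 341 at 3 weeks, 1005, 1148 and 1119.9 at 6 weeks and 1270.1, 1255 and 1323 at 9 weeks. It fell by 1.14 ± 0.08 at 3 weeks against 0h and rose by 1.51 ± 0.08 at 6 against 3 weeks (adjusted p 4.68e-09 and 4.01e-11). Hbs1l rose by 0.64 ± 0.06 at 6 weeks against 0h, while its second probe set gave -0.40 (adjusted p 0.0301).

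On the cap side of the list, the eIF4E kinases rose and an eIF4A inhibitor fell. Mknk1, which phosphorylates eIF4E on the eIF4G scaffold, read 256, 240.3 and 350.5 at 0h, 428, 409.8 and 444 at 3 weeks, 458, 567 and 499.7 at 6 weeks and 512, 447 and 548 at 9 weeks and rose by 0.59 ± 0.13, 0.83 ± 0.13 and 0.81 ± 0.13 (adjusted p 0.00186, 5.08e-05 and 6.19e-05). Mknk2, its paralog, rose at 3 and 9 weeks by 0.765 ± 0.08 and 0.79 ± 0.08. Pdcd4, which inhibits the eIF4A helicase, fell by 0.65 ± 0.08 at 6 weeks and 0.77 ± 0.08 at 9 weeks (adjusted p 3.95e-06 and 6e-07). Pabpc4, a poly(A)-binding protein that contacts eIF4G, read 2155, 2284 and 2596 at 0h, 2747, 2699 and 2605 at 3 weeks, 5265, 4141 and 5107 at 6 weeks and 3805, 3556 and 3844 at 9 weeks and rose by 1.04 ± 0.08 and 0.67 ± 0.08 at 6 and 9 weeks, where its second probe set gave 1.26 and 0.20. Ddit4, an inhibitor of the mTOR kinase that controls the 4E-binding proteins, rose by 0.76 ± 0.10 at 6 weeks and 0.96 ± 0.10 at 9 weeks.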

How the data were processed

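Total RNA of liver was hybridised to 12 arrays, in 4 groups of 3 taken from the labels, where arrays sharing a group are termed technical replicates. The workbook gives 1 intensity (signal) per probe set and array, per the file headers, as linear values after scaling by the authors; the program was GCOS 2.0 per the submitters' processing notes, and other steps are not given in the sources used here. The authors' deposited log2 ratios against 0h, 9 columns a time whose method is not stated, served as a comparison only. The series table deposited beside the workbook holds the same intensities within 0.1. All per-sample columns matched a label, and the number left unmatched was 0.

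Signals were taken as log2(signal + 16), with no further normalization. Probe sets with a mean above the 40th percentile were kept (signal 75.55). Left out were 57 controls, 11134 probe sets with no symbol and 23 with several. A gene was read from its brightest kept probe set. Other probe sets were fitted in the same model over all probe sets but controls, with p-values adjusted over those, or, as an alternative, in place of the brightest. Fold changes are on the log2(signal + 16) scale, which understates those of dim genes. The model, fitted in R 4.3.3 with lmFit and eBayes (trend on intensity) of limma 3.58.1, had the means of 4 groups over all 12 arrays. Residual degrees of freedom were 8, the median residual SD was 0.131 log2 units, and p-values were adjusted by Benjamini-Hochberg over 10319 genes. The number of arrays limits the precision. Within groups arrays correlated at r = 0.967 to 0.977 and between groups at 0.937 to 0.969. Replicate numbers did not pair the arrays: deviations of same-numbered arrays correlated at -0.04 to 0.12 over 18 pairs.

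The members, role groups, partner list and marker lists were chosen with earlier results of these data known. Genes named with values were members called in any of the 5 comparisons, in each role group the member with the largest change from 0h and that with the highest mean signal, a set of central factors, and per comparison with 0h the 5 largest called rises and falls among partners. Atf4, Hbs1l, Eif4a1 and Eif2c2 were added after their values were seen. Symbols and pseudogenes came from a RefSeq gene table, in which 33 members have a processed copy; 30 members have several probe sets. Alternatives varied the pseudocount, the filter, the scaling, the intensity trend, the size limit, the probe set, the source table, a replicate block and each array left out. Tables and figures used Python 3.11.15 with matplotlib 3.10.9, numpy 2.4.6 and pandas 2.3.3.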

Additional observations from a re-analysis of the deposited data

Results flagged for a closer look

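Between 3 and 6 weeks, 13 members and 7 of 42 partner genes tested changed from one treated time to the next, by the direct test of 6 weeks against 3 weeks. Of the 56 members tested 17.9% rose and 5.36% fell, where 9.17% of all genes tested rose and 10.7% fell. The difference of the members and partners from all genes was not tested. On the log2 scale the members that rose were Eif2ak3 by 0.95, Eef1g by 0.90, Eif1a by 0.87, Eif1ad by 0.805, Eif6 by 0.78, Eif2b3 by 0.76, Eif2b2 by 0.73, Eif3c and Eif3f by 0.69 each, and Eif3g by 0.66. Those that fell were Eif4e3, with -0.98, Eef2k, with -0.64, and Eif2ak2, with -0.61. The partners all rose: Trib3 by 3.77, Pelo by 1.51, Ddit3 by 1.498, Ppp1r15a by 1.28, Dnajc3 by 1.03, Pabpc4 by 0.84 and Hbs1l by 0.72.

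Between 6 and 9 weeks the same test picked out Eif4e3, which rose by 1.098, and Eif1a, with -0.79. Of all genes tested 5.26% rose and 2.42% fell in this step. Groups of 3 arrays are too small for a test of single outlying arrays.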

How the results depend on the processing

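The 48 member calls over the 5 comparisons were recomputed under 24 alternatives. Of 1147 values 1057 kept their direction and side of the threshold, 85 lost the call (37 of them under a fold limit of 2) and 5 reversed, all 5 on the second brightest probe set: Eif2s3x at -0.385, -0.129 and -0.079 at 3, 6 and 9 weeks, Eif4g1 at -0.25 at 3 weeks and Eef1g at -0.003 at 6 against 3 weeks. Of 48 calls 38 held without each array in turn, 11 held with a fold limit of 2, 30 held under all alternatives other than that limit and 8 held under all; the cause of the losses other than by that limit was not tested.

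Counts of members that rose and fell are given in the order 3, 6 and 9 weeks against 0h, 6 against 3 and 9 against 6 weeks. With a fold limit of 2 the rises were 1, 3, 2, 0 and 1 and the falls 2, 1, 1, 0 and 0, where the higher limit itself removes calls. Without a fold limit they were 17, 34, 31, 33 and 3 rises and 17, 9, 8, 8 and 7 falls. On the second brightest probe set 2 rose and 5 fell at 3 weeks, and 0 rose and 4 fell at 9 against 6 weeks. Median centring left 2 rises at 3 weeks and 1 fall at 6 against 3 weeks, pseudocount 64 left 1 such fall, and a filter at the 60th percentile, which drops Eef1a2, left 1 fall at 3 weeks. Leaving out 1 array at a time gave 1 to 3 falls at 6 against 3 weeks. Other leave-one-out counts stayed within 1.5 times of those reported.

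With the replicate number as a block, 11 members rose and 3 fell at 6 weeks and no count of member calls changed; 6 of 12 arrays correlated best with an array of their own number. The limits are those of 3 arrays a group, no detection calls in the files used here, and several probe sets that disagree: of 18 calls in members with a second kept probe set, 13 were lost or reversed on it.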
